A study of Homo sapiens with 12 samples.

Results

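The 6 genes described here encode proteins stored in azurophil granules, the primary granules that myeloid cells load at the promyelocyte stage: ELANE, PRTN3, AZU1, CTSG, LYZ and MPO. They were taken by name from 57096 human genes with a row in the deposited table, and all 6 were among the 15831 genes that passed the count filter and were tested. THP-1, an established monocytic acute myeloid leukaemia line with an MLL-AF9 fusion gene, was treated for 2 hours with AZ5576, THZ531, YKL5124 or the vehicle DMSO, and all 4 groups received 1 mM 4-thiouridine for the last 10 minutes. The 3 compounds inhibit kinases that act on RNA polymerase II, CDK7 (YKL5124), CDK9 (AZ5576) and CDK12 with CDK13 (THZ531), and the labels give no dose. Each group had 3 libraries of polyadenylated RNA 3' ends, numbered 1 to 3, made from 1 cell line, and the labels do not say whether these were separate cultures. The p-values therefore measure only library-to-library spread, possibly technical. The 3 columns taken as DMSO are named UT in the table and were assigned to it because the other 9 columns carry the names of the inhibitor samples.

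Azurophil granules are packed in immature myeloid cells and persist in neutrophils and monocytes, so their mRNAs mark the promyelocyte and early monocyte stages. The granule serine proteases are made as inactive precursors and trimmed by the dipeptidyl peptidase cathepsin C (CTSC). They are held on the proteoglycan serglycin (SRGN) and restrained in the cytosol by serpins such as SERPINB1. Their genes are known targets of the transcription factors PU.1 (SPI1), C/EBP, MYB and RUNX1. A total mRNA level reflects both synthesis and decay, and in bulk RNA fewer cells expressing a gene and less RNA per cell cannot be told apart.

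AZU1, PRTN3 and ELANE lie side by side on the plus strand of chromosome 19 in GRCh38 (GENCODE v29). AZU1 (ENSG00000172232) spans 825097 to 832018, PRTN3 (ENSG00000196415) 840960 to 848175 and ELANE (ENSG00000197561) 851014 to 856247, so the 3 genes fit in 31151 bases. CTSG (ENSG00000100448) lies on chromosome 14, 24573522 to 24576260, minus strand, LYZ (ENSG00000090382) on chromosome 12, 69348341 to 69354234, plus strand, and MPO (ENSG00000005381) on chromosome 17, 58269856 to 58280935, minus strand. The genes are short: from 2739 bases for CTSG to 11080 for MPO, against a median of 31776 bases over 11671 tested protein-coding genes. No last exon of the 6 rows used overlapped another gene with at least 120 counts. The row used for CTSG was a transcript annotated as a retained intron, which held 15050 counts against 12925 for the protein-coding row, whereas the 2 rows of ELANE held the same counts, as did the 2 rows of PRTN3.

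RefSeq promoter sequences (GRCh38.p14) matched 3 of the 6 genes, AZU1, PRTN3 and CTSG. The 250 bases before each RefSeq start are shown for all 3 genes that had an entry. These 3 rose under AZ5576 and THZ531 with TMM scaling, as did ELANE, which had no entry. Capitals mark matches, on either strand, to TATAA (the core of a TATA box), GAGGAA (a PU.1 core), CAACNG (a MYB core) and TGTGGT (a RUNX core), and none of these matches overlapped another. The stretches are chr19:827587-827836 (plus strand) for AZU1, chr19:840749-840998 (plus strand) for PRTN3 and chr14:24576251-24576500 (minus strand) for CTSG.
AZU1: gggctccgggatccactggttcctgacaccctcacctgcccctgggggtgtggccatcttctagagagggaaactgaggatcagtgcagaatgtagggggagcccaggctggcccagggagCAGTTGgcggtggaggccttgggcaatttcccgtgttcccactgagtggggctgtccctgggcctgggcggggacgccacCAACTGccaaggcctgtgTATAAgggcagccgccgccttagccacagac
PRTN3: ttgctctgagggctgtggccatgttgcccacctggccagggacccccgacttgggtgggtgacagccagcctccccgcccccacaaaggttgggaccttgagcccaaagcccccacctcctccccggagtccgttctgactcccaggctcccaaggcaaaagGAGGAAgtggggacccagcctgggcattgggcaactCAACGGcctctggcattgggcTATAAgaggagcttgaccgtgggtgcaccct
CTSG: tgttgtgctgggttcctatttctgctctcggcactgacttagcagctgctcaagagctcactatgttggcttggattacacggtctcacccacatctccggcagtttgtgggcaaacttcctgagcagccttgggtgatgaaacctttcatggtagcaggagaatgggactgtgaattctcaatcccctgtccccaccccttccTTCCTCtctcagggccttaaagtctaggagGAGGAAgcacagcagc

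AZU1 and PRTN3, which are paralogs, each had TATAA at bases 31 to 27 before the start. Both also had a CAACNG match close to it, at bases 49 to 44 in AZU1 and 52 to 47 in PRTN3, and AZU1 had another at bases 129 to 124. GAGGAA occurred once in PRTN3, at bases 88 to 83, and at 2 places in CTSG, at bases 46 to 41 and 16 to 11. No TGTGGT was found in these 3 windows. Among 35116 promoter windows of the same length, 18.9% held TATAA, 23.6% GAGGAA, 27.0% CAACNG and 11.0% TGTGGT. The row used for AZU1 belongs to a transcript whose annotated start lies upstream of the AZU1 window. In GENCODE v29, PRTN3 (from 840960) and CTSG (from 24576260 on the minus strand) begin inside their windows. The TATAA match of PRTN3 thus lies within that gene's annotated span.

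Human counts per library (1 row per gene) ranged from 5048370 to 12743630 with a median of 10543880, and AZ5576 replicate 2 was the shallowest. Fly RNA had been added to the purified RNA, and the ratio of human to fly counts ranged from 27.0 in AZ5576 replicate 2 to 35.6 in DMSO replicate 3, with 28.3 and 29.6 in DMSO replicates 2 and 1. Levels are CPM, counts per 1e+06 counts of a library after TMM scaling, which aligns libraries on the bulk of the human genes. Rises and falls are thus relative to most other human genes. With scaling by the fly counts the median log2 fold change of all genes fell to -0.17 for AZ5576, -0.37 for THZ531 and -0.07 for YKL5124 against DMSO, and with library size alone to -0.12, -0.29 and -0.02. With TMM these medians lay between -0.00 and 0.01. Of all called genes 44.7%, 48.0% and 34.9% were higher with TMM, 10.3%, 13.2% and 21.1% with fly scaling, 53.4%, 48.0% and 54.1% with upper quartile scaling and 21.9%, 23.2% and 30.2% with library size alone. The 12 monocyte and myeloid markers summed to 418 to 507 CPM over all libraries. Within that list CD14, a marker of mature monocytes, had 0 to 6 counts per library. CD3E, CD3G, CD8A, CD2, HBB, HBA1 and HBA2 were at 0 in all libraries, and the 12 T, NK and B cell markers summed to 7.53 to 13.0 CPM.

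ELANE (neutrophil elastase) was the most abundant of the 6 in DMSO, both in CPM and per kilobase of the row used. The mean levels in DMSO, in CPM per kilobase, were 419 for ELANE, 294 for PRTN3, 84.9 for AZU1, 77.5 for CTSG, 26.5 for LYZ and 0.550 for MPO. The libraries read 3' ends, so length need not scale the counts, and the unscaled means, 386, 301, 145, 106, 40.5 and 1.77 CPM, had the same order. MPO had too few counts to judge, from 5 to 31 per library and 264 in all, although it passed the filter.

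**Figure D1:**
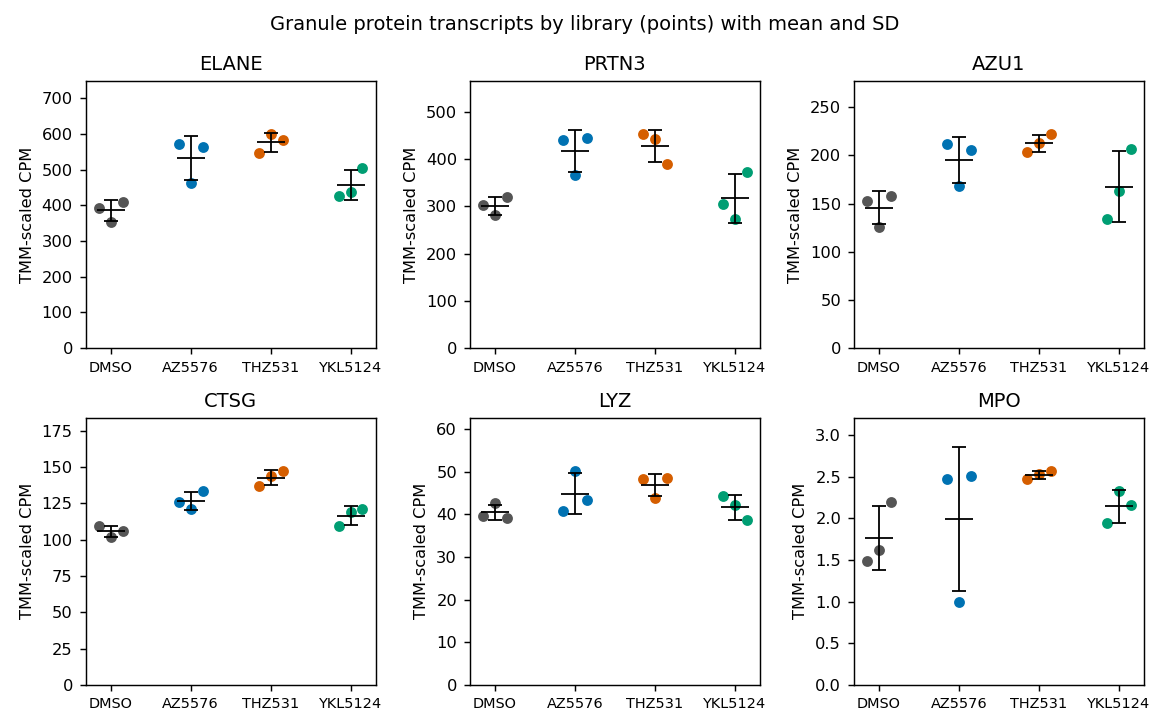
Levels of the 6 granule protein transcripts, in TMM-scaled CPM on axes that start at 0. Points are the 3 libraries of each group, and bars give the mean and SD. ELANE lay at 354 to 410 CPM in DMSO and at 547 to 599 CPM in THZ531, while MPO reached at most 2.57 CPM.

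The serine protease group (ELANE, PRTN3, AZU1 and CTSG) rose under AZ5576 and THZ531 relative to other genes, with calls that fly scaling did not make. ELANE measured 393, 354 and 410 CPM in DMSO replicates 1 to 3. It measured 572, 463 and 563 CPM with AZ5576, 547, 599 and 585 CPM with THZ531, and 426, 438 and 504 CPM with YKL5124. All 9 inhibitor libraries lay above the 3 DMSO libraries. ELANE was 1.38-fold higher under AZ5576 (log2 fold change 0.47, SE 0.07, edgeR quasi-likelihood adjusted p = 7.05e-06), 1.50-fold higher under THZ531 (0.58, SE 0.07, adjusted p = 6.40e-08) and 1.18-fold higher under YKL5124 (0.24, SE 0.07, adjusted p = 0.0178), with n = 3 against 3 in each. The call under YKL5124 was lost without DMSO replicate 2 (0.18) or YKL5124 replicate 3 (0.16).

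PRTN3 encodes proteinase 3, a serine protease and the autoantigen of a vasculitis. DMSO replicates 1 to 3 held 302, 282 and 320 CPM. The values were 440, 366 and 445 CPM with AZ5576, 452, 442 and 390 CPM with THZ531, and 305, 273 and 373 CPM with YKL5124. The AZ5576 and THZ531 libraries stood apart from DMSO, whereas YKL5124 overlapped it. The gene rose 1.39-fold under AZ5576 (log2 fold change 0.47, SE 0.08, edgeR adjusted p = 4.51e-05) and 1.42-fold under THZ531 (0.50, SE 0.09, adjusted p = 6.75e-06). Under YKL5124 it did not pass the test (0.07, 95% interval -0.10 to 0.25).

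AZU1 encodes azurocidin, a relative of the proteases that lacks protease activity and acts as an antimicrobial and chemoattractant protein. DMSO libraries held 153, 126 and 158 CPM, those with AZ5576 212, 168 and 206, those with THZ531 204, 213 and 222, and those with YKL5124 134, 163 and 207. YKL5124 had the widest spread of the 4 groups, and it overlapped DMSO. AZU1 rose 1.35-fold under AZ5576 (log2 fold change 0.43, SE 0.10, edgeR adjusted p = 0.00109) and 1.46-fold under THZ531 (0.55, SE 0.10, adjusted p = 2.94e-05). Its difference under YKL5124 was not called (0.21, SE 0.10, adjusted p = 0.157), but it was without YKL5124 replicate 1 (0.34).

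CTSG encodes cathepsin G, a serine protease with chymotrypsin-like cleavage. DMSO libraries held 109, 102 and 106 CPM, those with AZ5576 126, 121 and 133, those with THZ531 137, 144 and 147, and those with YKL5124 109, 119 and 121. The AZ5576 and THZ531 libraries did not overlap DMSO or each other. CTSG rose 1.20-fold under AZ5576 (log2 fold change 0.27, SE 0.07, edgeR adjusted p = 0.00148) and 1.35-fold under THZ531 (0.43, SE 0.06, adjusted p = 1.09e-06). Under YKL5124 it was at 0.14 (SE 0.06, adjusted p = 0.128), and the difference was called with upper quartile scaling (0.21).

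LYZ encodes lysozyme, which cleaves bacterial cell walls and is also stored outside azurophil granules. DMSO libraries held 39.7, 42.5 and 39.2 CPM, those with AZ5576 40.8, 50.1 and 43.4, those with THZ531 48.3, 43.9 and 48.6, and those with YKL5124 44.4, 42.1 and 38.5. Only the THZ531 libraries were all above DMSO. The rise under THZ531 was 1.16-fold (log2 fold change 0.21, SE 0.08, edgeR adjusted p = 0.0282), and it was at 0.13 under AZ5576 (95% interval -0.05 to 0.30) and 0.04 under YKL5124 (-0.13 to 0.21), neither called. The call under THZ531 was lost in DESeq2 (0.22), with summed rows (0.20), with only the 6 libraries compared (0.17), without a count filter (0.20) or with a strict one (0.18), and without DMSO replicate 1 (0.20) or 3 (0.19) or THZ531 replicate 1 (0.16) or 3 (0.16). Fly scaling turned the sign of LYZ under THZ531 (-0.15), AZ5576 (-0.05) and YKL5124 (-0.02), and library size alone turned it under THZ531 (-0.08).

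MPO encodes myeloperoxidase, the haem enzyme that makes hypochlorous acid in the granule. DMSO libraries held 20, 17 and 28 counts, those with AZ5576 31, 5 and 30, those with THZ531 19, 23 and 24, and those with YKL5124 16, 25 and 26. In CPM the THZ531 libraries (2.47, 2.54 and 2.57) lay above those of DMSO (1.48, 1.62 and 2.20), and AZ5576 and YKL5124 overlapped DMSO. No difference was called, and the 95% intervals ran from -0.27 to 0.89 under AZ5576, -0.06 to 1.09 under THZ531 and -0.29 to 0.86 under YKL5124 on the log2 scale. These intervals hold the fold changes of ELANE as well as 0, so a change of that size was not detectable in MPO at this depth.

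**Figure D2:**
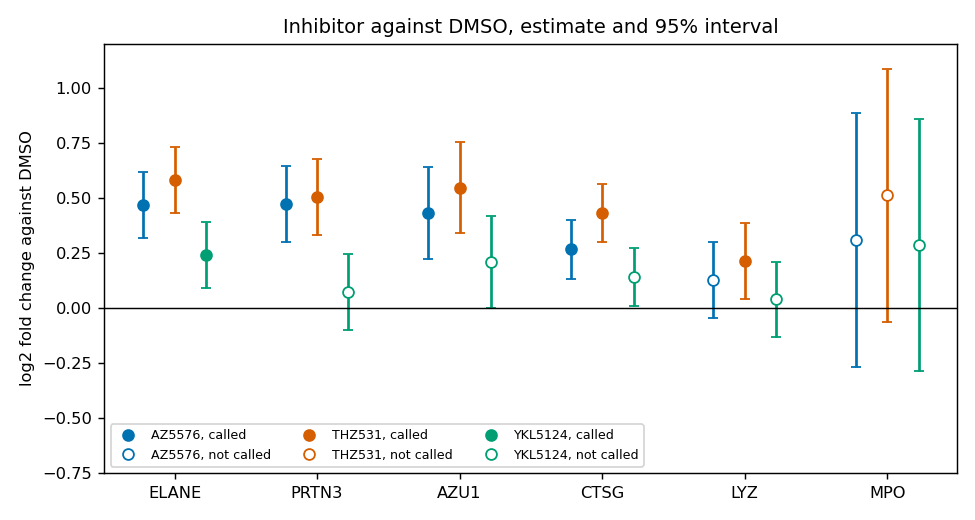
Log2 fold change of each gene in each inhibitor group against DMSO, with 95% intervals, filled where edgeR's adjusted p was below 0.05. ELANE, PRTN3 and AZU1 lay between 0.43 and 0.58 under AZ5576 and THZ531, and the intervals of MPO were the widest.

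Against DMSO, 4 of the 6 genes rose and 0 fell under AZ5576, where 41.7% of all tested genes were called, made up of 18.6% higher and 23.1% lower. Under THZ531 5 rose and 0 fell, where 63.4% of tested genes were called (30.4% higher and 32.9% lower). Under YKL5124 1 rose and 0 fell, with a background of 20.8% (7.25% higher and 13.5% lower). The median log2 fold change of the 6 was 0.37, 0.51 and 0.17, against 0.01, -0.00 and -0.00 over all tested genes, whose upper quartiles were 0.23, 0.39 and 0.15. The 3 comparisons share the DMSO libraries. Libraries did not overlap DMSO for 4, 6 and 2 of the 6 genes, against 47.8%, 67% and 35.1% of all tested genes. No gene of the 6 fell at an unadjusted p below 0.05 in edgeR or by call in DESeq2, which called 4, 4 and 1 of them higher. Of all genes DESeq2 called 5343, 9060 and 2383 in either direction, where edgeR called 6602, 10033 and 3291.

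With fly scaling 0 of the 6 were called in the 3 comparisons with DMSO, although 3 were higher under AZ5576 at an unadjusted p below 0.05 (0 under THZ531 and 0 under YKL5124). Over all 15831 tested genes fly scaling called 5034, 8471 and 2515, of which 10.3%, 13.2% and 21.1% were higher. Few genes of any kind were thus called higher with this scaling, so 0 of 6 does not set these genes apart. ELANE was then at 0.27 (SE 0.12, adjusted p = 0.0617) under AZ5576, 0.21 (adjusted p = 0.131) under THZ531 and 0.17 (adjusted p = 0.406) under YKL5124, and PRTN3 at 0.28 (adjusted p = 0.0568), 0.13 and 0.00. CTSG was at 0.075 (adjusted p = 0.709), 0.065 (adjusted p = 0.675) and 0.075 (adjusted p = 0.804), and with library size alone it was not called under AZ5576 or THZ531 (0.14 in each). The standard error of ELANE was 0.12 with fly scaling and 0.07 with TMM. Without DMSO replicate 3, the library with the highest ratio of human to fly counts, fly scaling gave 3 rises under AZ5576 (ELANE 0.43, PRTN3 0.43 and AZU1 0.41), 2 under THZ531 (ELANE 0.36 and AZU1 0.35) and 0 under YKL5124. Of all genes 4510, 8440 and 2058 were called in either direction in that fit, and the share called higher is not given here. Whether the fly counts or the middle of the human genes set the truer scale was not tested.

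**Figure D3:**
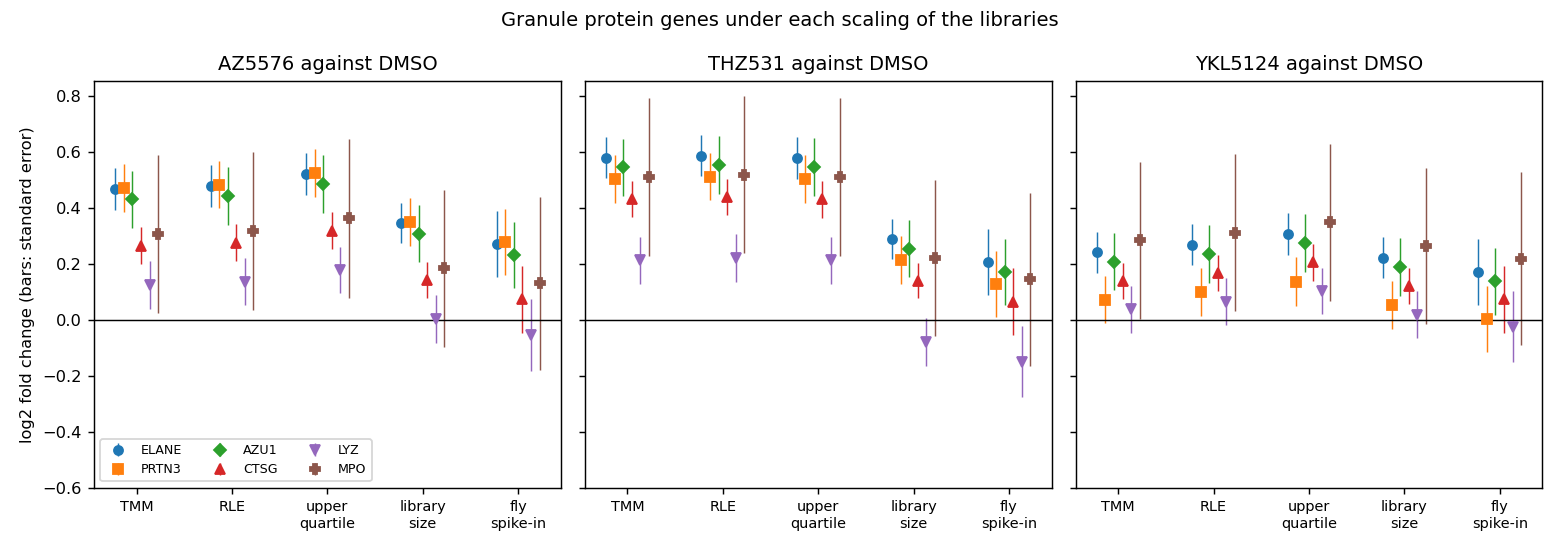
Log2 fold change of each gene against DMSO with its standard error, under 5 ways of scaling the libraries. Library size alone and the fly counts gave lower values than TMM for all 6 genes, ELANE under THZ531 from 0.58 to 0.21 with the fly counts.

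The inhibitors were also compared with each other, in contrasts whose means do not rest on the UT columns. In 5 of the 6 genes the group means rose in the order DMSO, YKL5124, AZ5576 and THZ531, and in MPO YKL5124 (2.14 CPM) stood above AZ5576 (1.99 CPM). This order holds for TMM over all 12 libraries. Leaving out 1 library took the AZ5576 minus THZ531 difference up to 0.088 for PRTN3, 0.014 for ELANE and 0.0093 for AZU1. It took the YKL5124 minus DMSO difference down to -0.064 for PRTN3 and -0.0065 for LYZ. The AZ5576 minus THZ531 difference turned above 0 with fly scaling for ELANE (0.067), PRTN3 (0.15), AZU1 (0.061), LYZ (0.095) and CTSG, and with library size alone for the same 5 genes. AZ5576 and THZ531, neighbours in that order, differed by call only in CTSG, which was lower under AZ5576 (127 ± 6.1 against 143 ± 5.2 CPM, SD, n = 3; log2 fold change -0.17, SE 0.07, edgeR adjusted p = 0.0316), where 55% of tested genes were called and 27.1% were lower. CTSG was also the 1 gene of the 6 whose AZ5576 and THZ531 libraries did not overlap, against 59.1% of tested genes. The call for CTSG was lost without AZ5576 replicate 1 (-0.16) or 2 (-0.10), without any 1 of the THZ531 libraries (-0.16 to -0.11), with only the 6 libraries compared (-0.13) and with upper quartile scaling (-0.11), and fly scaling put the value at 0.01, library size alone at 0.00. The interval of the AZ5576 minus THZ531 difference ran from -0.26 to 0.04 for ELANE, -0.21 to 0.14 for PRTN3 and -0.32 to 0.09 for AZU1.

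THZ531 exceeded YKL5124 in 4 of the 6 genes, where 61% of tested genes were called and 30.5% were higher. The differences were 0.43 for PRTN3 (SE 0.09, edgeR adjusted p = 6.47e-05), 0.34 for ELANE (SE 0.07, adjusted p = 0.000220), 0.34 for AZU1 (SE 0.10, adjusted p = 0.00509) and 0.29 for CTSG (SE 0.06, adjusted p = 0.000290). All 4 lost their call under fly scaling (0.13, 0.04, 0.03 and -0.01) and when scaled by library size alone (0.16, 0.07, 0.07 and 0.02). AZU1 also lost it in DESeq2 (0.32), without THZ531 replicate 3 (0.27) and without YKL5124 replicate 1 (0.20). LYZ (0.17, 95% interval 0.00 to 0.35, adjusted p = 0.0769) was called without YKL5124 replicate 1 (0.22).

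AZ5576 exceeded YKL5124 in 2 of the 6 genes, against a background of 15.8% called, 6.23% higher and 9.6% lower. PRTN3 was 1.32-fold higher (417 ± 45 against 317 ± 51 CPM, SD, n = 3; log2 fold change 0.40, SE 0.09, edgeR adjusted p = 0.00136), a call lost with fly scaling (0.27) and under no other change of scaling, filter, tool, row or library. ELANE was at 0.23 (SE 0.07, adjusted p = 0.0336), and its call was lost under 12 of 24 other analyses, among them RLE scaling (0.21), DESeq2 (0.21) and leaving out AZ5576 replicate 1 (0.17) or 3 (0.19) or YKL5124 replicate 1 (0.18) or 2 (0.20). AZU1 (0.22, adjusted p = 0.141) was called without AZ5576 replicate 2 (0.30) or YKL5124 replicate 3 (0.41).

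Across the 12 libraries the 4 proteins of the serine protease family varied together, and LYZ and MPO varied with them less. Pearson's r of log2 CPM was 0.95 for ELANE and AZU1, 0.94 for ELANE and CTSG and 0.90 for ELANE and PRTN3, but 0.34 for ELANE and LYZ and 0.60 for ELANE and MPO. These are descriptions over libraries that share treatment groups and scaling. The genes with the nearest pattern (smallest root mean square difference in log2 CPM, each gene centred on its mean over 12 libraries and averaging 10 CPM or more) included CCDC124 (0.06) and ASS1 (0.06) for ELANE, CCDC124 (0.07), RPL11 (0.09) and ELANE (0.09) for AZU1, and PLD4 (0.07), LSM7 (0.08) and GPX4 (0.09) for PRTN3. They included SELENOW (0.04), COX7A2 (0.04) and CLTA (0.04) for CTSG and TSPAN3 (0.06), ALDH2 (0.06) and VPS35 (0.06) for LYZ. For MPO, whose counts are few, the nearest were TSC2 (0.19), ANKRD52 (0.22) and the pseudogene RPL12P47 (0.22).

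The genes that flank the chromosome 19 trio were read beside it. CFD, which encodes the serine protease complement factor D, lies next to ELANE (859643 to 863630) and rose in all 3 comparisons, with log2 fold changes of 0.32 (SE 0.05) under AZ5576, 0.40 (SE 0.05) under THZ531 and 0.23 (SE 0.05) under YKL5124 (edgeR adjusted p = 1.53e-05, 1.47e-07 and 0.00190). On the other side, the membrane protein gene PLPPR3 rose under AZ5576 (0.40, SE 0.09) and THZ531 (0.30, SE 0.09), and the splicing regulator PTBP1 rose under THZ531 (0.59, SE 0.06) but was not called under AZ5576 (0.11) or YKL5124 (-0.01). ARID3A, a transcription factor gene further along, fell by 0.62 under AZ5576, 2.38 under THZ531 and 0.34 under YKL5124, and MED16, a Mediator subunit between CFD and ARID3A, was not called in any of these comparisons. R3HDM4, which lies between MED16 and ARID3A, rose in all 3 (0.29, 0.30 and 0.23, SE 0.08 in each), and KISS1R, a receptor gene with 121 counts in all, was higher under THZ531 (0.96, SE 0.41, adjusted p = 0.0439). With fly scaling CFD (0.13, 0.03 and 0.16), PLPPR3, PTBP1, R3HDM4 and KISS1R lost their calls, PLPPR3, R3HDM4 and PALM (PALM had not been called) each turned to -0.07 under THZ531, and ARID3A kept its falls. ARID3A was the 1 tested neighbour that was called lower against DMSO.

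**Figure D4:**
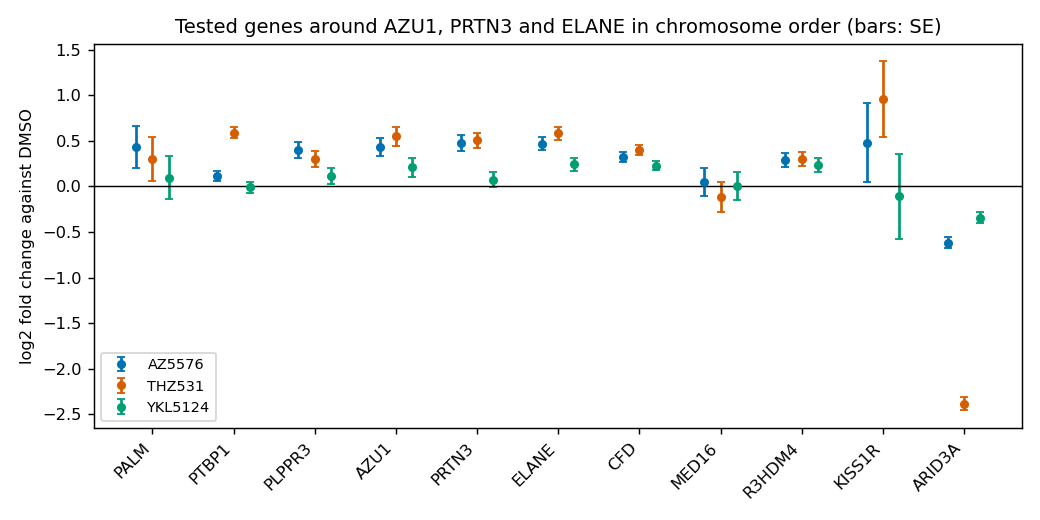
Log2 fold change against DMSO with its standard error for the tested genes within 100000 bases of AZU1, PRTN3 and ELANE, in chromosome order. AZU1, PRTN3, ELANE, CFD, PLPPR3, R3HDM4 and PALM lay above 0 in all 3 comparisons with TMM (under THZ531 PLPPR3, R3HDM4 and PALM turned below 0 with fly scaling), and ARID3A reached -2.38 under THZ531.

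Of the genes for other azurophil and lysosomal contents, more were called higher than lower under AZ5576 and THZ531. Of 33 listed genes 29 were tested. Under AZ5576 16 rose and 1 fell (median 0.27), under THZ531 22 rose and 1 fell (median 0.36), and under YKL5124 1 rose and 0 fell (median 0.09). Over all tested genes 18.6%, 30.4% and 7.25% were called higher and 23.1%, 32.9% and 13.5% lower, a background that holds for the lists that follow as well, and 1 of 29 under YKL5124 is below it. The lysosomal membrane proteins LAMP1 and LAMP2 had log2 fold changes of 0.32 (SE 0.06) and 0.35 (SE 0.07) under AZ5576, and LAMP1 of 0.58 (SE 0.06) under THZ531. The acid phosphatase gene ACP2 was the gene that fell, by 0.47 under AZ5576 and 0.75 under THZ531. PRSS57, a granule serine protease, was the 1 rise under YKL5124 (0.62, SE 0.22, adjusted p = 0.0450), a call not made in DESeq2, with library size alone (0.60) or with fly scaling (0.56). The granule ribonuclease genes RNASE2 and RNASE3 rose under THZ531 (0.32, SE 0.07, and 0.45, SE 0.11). The defensin genes DEFA1, DEFA1B and DEFA3 had 0 counts, which is uncertain because they are near-identical copies whose reads the counting may have split or dropped, and BPI had 11 in all. With fly scaling 0 rose in each comparison, 1, 2 and 0 fell, and the median under THZ531 was -0.01.

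Genes that activate, package or inhibit the granule proteases mostly rose under THZ531, and CTSC was lower under AZ5576 than under THZ531. Of 15 listed, 12 were tested, and 6 rose and 1 fell under AZ5576, 11 rose and 0 fell under THZ531, and 0 were called by edgeR under YKL5124 (1 at an unadjusted p below 0.05 and 1 by DESeq2). The medians were 0.22, 0.42 and 0.03. CTSC, the activating peptidase, fell by 0.21 (SE 0.08, adjusted p = 0.0375) under AZ5576 and rose under THZ531 from 40.9 to 76.1 CPM (log2 fold change 0.90, SE 0.08, adjusted p = 2.65e-11). The 2 inhibitors differed directly in CTSC (AZ5576 minus THZ531 -1.11, SE 0.08, adjusted p = 6.77e-13). With fly scaling the values against DMSO were -0.40 and 0.53, both still called, but the fall under AZ5576 was not called in DESeq2 or with upper quartile scaling (-0.16). SRGN, the packaging proteoglycan, was at 0.28 (SE 0.05) under AZ5576 and 0.41 (SE 0.05) under THZ531, and CSTB, a cysteine protease inhibitor, at 0.44 (SE 0.09) and 0.76 (SE 0.08). SERPINB1, the inhibitor of elastase, cathepsin G and proteinase 3, rose under THZ531 (0.16, SE 0.07, adjusted p = 0.0409) and was at 0.11 under AZ5576, and the difference between these inhibitors was not called (-0.05, adjusted p = 0.605). With fly scaling 2 rose under THZ531 and 0 under AZ5576, 1 fell in each, SRGN lost both calls, and the median under YKL5124 was -0.04.

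Most of the specific and gelatinase granule genes, which mark later neutrophil stages, had too few counts to be tested. CHI3L1 was an exception, at 504 CPM in DMSO against 386 CPM for ELANE. Of 19 listed 8 were tested, and LTF, LCN2, MMP8, OLFM4, CRISP3, ORM2 and ARG1 had 0 counts (ORM2 has a close copy, ORM1, which was counted). Among the 8, 3 rose and 1 fell under AZ5576, 5 rose and 0 fell under THZ531, and 1 rose and 1 fell under YKL5124 (medians 0.18, 0.38 and 0.01). CYBA, a subunit of the oxidase that supplies MPO's substrate, was at 0.52 (SE 0.10), 0.60 (SE 0.10) and 0.32 (SE 0.10), and CHI3L1, a chitinase-like protein, rose under AZ5576 (0.31, SE 0.05) and THZ531 (0.37, SE 0.05). PTX3, a soluble pattern recognition protein, fell by 1.07 under AZ5576 and 0.90 under YKL5124 (SE 0.22 in each). With fly scaling CYBA was called under AZ5576 alone (0.32), and the medians were -0.00, 0.01 and -0.06.

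The transcription factor genes known to act on granule genes fell more often than they rose. Of 13 listed and tested, 7 fell and 2 rose under AZ5576, 8 fell and 3 rose under THZ531, and 6 fell and 1 rose under YKL5124, with medians of -0.57, -0.63 and -0.49. With fly scaling 7, 10 and 6 fell, and 1, 0 and 1 rose. GFI1, a repressor that shapes granulocyte development, fell from 360 CPM in DMSO to 160, 103 and 152 CPM (log2 fold changes -1.18, -1.80 and -1.24, SE 0.06, 0.07 and 0.06). CEBPD fell by 1.77 under AZ5576 (SE 0.09) and 1.08 under YKL5124 (SE 0.08). RUNX1, which binds granule gene promoters, fell from 65.4 to 5.69 CPM under THZ531 (log2 fold change -3.52, SE 0.10). It was not called under AZ5576 (-0.02) or YKL5124 (0.03). SPI1, which encodes PU.1, was at -0.08 (SE 0.09, adjusted p = 0.418) under THZ531. MYB, GFI1 and CEBPA, a C/EBP family gene, were called lower with each inhibitor (CEBPA 902 CPM in DMSO and 440 CPM under THZ531). The serine protease group was called higher alongside these falls with AZ5576 and THZ531. With YKL5124 only ELANE of that group was called, and MYB was at -0.64, GFI1 at -1.24 and CEBPA at -0.49. CUX1 rose with AZ5576 (0.67) and YKL5124 (0.68) and fell with THZ531 (-0.87). CBFB rose with AZ5576 and THZ531, and LEF1 rose with THZ531. KLF4, with 2 to 43 counts per library, rose with THZ531 (0.84) and fell with AZ5576 (-2.60) and YKL5124 (-1.83). Any link between these factors and the granule genes was not tested.

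**Figure D5:**
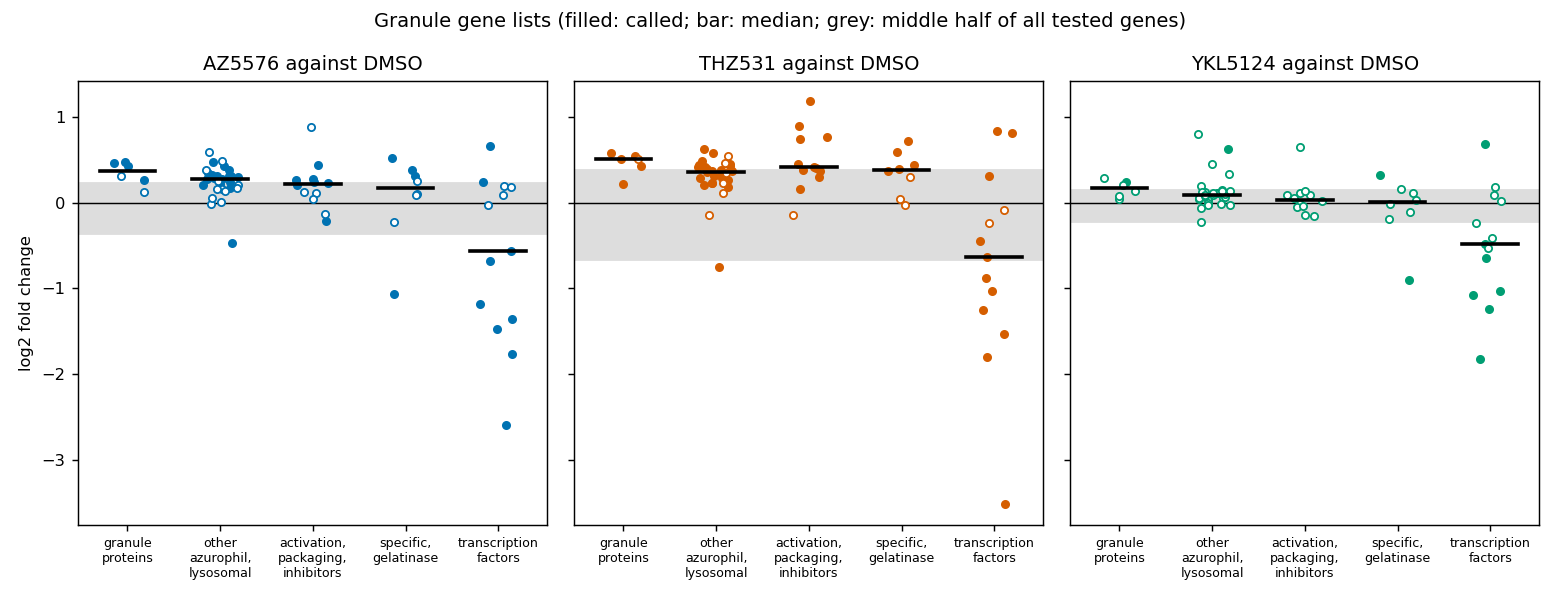
Log2 fold change against DMSO of each tested gene in 5 lists, each point a gene, filled where called, with the list's median as a bar and the range between the quartiles of all tested genes in grey. The granule and lysosomal lists had medians above 0 in all 3 panels with TMM, as plotted, 4 of which turned below 0 with fly scaling, and the transcription factors had medians between -0.49 and -0.63.

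Of 12 monocyte and myeloid markers 11 were tested, with 3 rises and 0 falls under AZ5576, 4 rises and 2 falls under THZ531, and 1 rise and 0 falls under YKL5124 (medians 0.17, 0.04 and 0.10). The rises under THZ531 and YKL5124 were near the background of 30.4% and 7.25% of all tested genes called higher. FCER1G, an adaptor of Fc receptors, rose in all 3 (0.43, 0.47 and 0.30, SE 0.06 in each) and lost these calls with fly scaling (0.24, 0.11 and 0.23). The summed level of the list was 418 to 429 CPM in DMSO, 485 to 500 in AZ5576, 497 to 507 in THZ531 and 450 to 462 in YKL5124, and its part in the rises of the granule genes was not tested. Of 12 T, NK and B cell markers 3 were tested and CD79B fell under THZ531 (from 1.36 to 0.647 CPM), a call that DESeq2 did not make, and of 17 erythroid, eosinophil, epithelial and stromal markers 2 were tested (PECAM1 and PRG2). Of these 0 were called against DMSO by edgeR or DESeq2, and 1 was higher under AZ5576 at an unadjusted p below 0.05 in edgeR.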

How the data were processed

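The authors deposited 1 table of read counts per transcript for 12 SLAM-seq libraries of human and fly RNA, and per the submitters' processing notes the tools included Trim Galore (0.6.5), bcl2fastq (2.17.1.14) and edgeR (3.32.1), with the genome builds dm6 and hg38. Aligner, counter and strand setting: not given in the sources used here. Of 295100 rows 38374 are fly rows, and 5197 human rows that matched no annotated transcript (0.655% to 0.719% of human counts) were left out. For each gene the row with the highest total was kept, since summing rows counted reads 3.31 to 3.41 times. A further 94 genes with counts identical to another gene's were dropped. Counts were fitted with edgeR 4.0.16 (quasi-likelihood, TMM, filterByExpr with a minimum count of 10, R 4.3.3) over all 12 libraries, with Benjamini-Hochberg adjustment over 15831 genes and a threshold of 0.05. The SE is the absolute log2 fold change divided by the square root of F. Scripts were tested on simulated data. Libraries within a group differed by more than sampling noise (chi-square per gene 1.70 to 4.87).

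The members and lists were chosen with earlier results of these data known. The text names all 6 members, the 3 genes nearest to each in pattern and, from each list, the 2 genes with the smallest adjusted p in each comparison with DMSO; other genes named were chosen after their values were seen. Alternatives were RLE, upper quartile, library size and fly scaling, other filters and row choices, DESeq2 (1.42.0), only the 6 libraries compared, a replicate block and each library left out. Fly scaling without DMSO replicate 3 was added after seeing the data. Of the genes that the naming rule gives, some are not reported here.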

Additional observations from a re-analysis of the deposited data

How the results depend on the processing

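In all 12 fits that left out 1 library, 4 genes rose under AZ5576 against DMSO, 4 to 5 under THZ531 and 0 to 2 under YKL5124, 0 to 1 was lower under AZ5576 than THZ531, 1 to 3 were higher under AZ5576 than YKL5124 and 3 to 4 under THZ531 than YKL5124. All genes called ranged over these fits from 5603 to 6742, 9206 to 10224, 2583 to 3605, 7913 to 8979, 1688 to 2750 and 8789 to 9931 in the same order. With fly scaling 0 of the 6 genes were called in all 6 comparisons. All genes called with that scaling were 5034, 8471, 2515, 7711, 1967 and 8301 in the same order. Without DMSO replicate 3 as well, 3, 2 and 0 rose against DMSO, 0 were called between inhibitors, and 2058 genes in all were called for YKL5124 against 3291 with TMM. With library size alone 3 rose under AZ5576 and 3 under THZ531, 1 was higher under AZ5576 than YKL5124, and 0 differed in either comparison with THZ531. Of all genes 6071 were then called under AZ5576 and 9457 under THZ531, 21.9% and 23.2% of them higher. Between AZ5576 and YKL5124 2664 were called, 10.2% of them higher. Upper quartile scaling gave 2 rises under YKL5124 and 0 between AZ5576 and THZ531. For AZ5576 above YKL5124 the count was 1 with RLE scaling, DESeq2, the strict filter, the 6 libraries compared and summed rows, which also gave 0 between AZ5576 and THZ531 (6 libraries) and 0 under YKL5124 (summed rows).

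Among called differences, signs turned for LYZ under THZ531 (-0.078 with library size, -0.15 with fly scaling and -0.070 with fly scaling without DMSO replicate 3), for CTSG between AZ5576 and THZ531 (0.0032, 0.0096 and 0.011 in the same order) and for CTSG between THZ531 and YKL5124 (-0.0093 with fly scaling, -0.0098 without DMSO replicate 3). Differences that were not called turned too, with fly scaling LYZ under AZ5576 and YKL5124, LYZ and MPO between THZ531 and YKL5124, and ELANE, AZU1, PRTN3 and LYZ between AZ5576 and THZ531. In TMM fits that left out 1 library, signs turned for PRTN3 and LYZ under YKL5124. They also turned for ELANE, AZU1, PRTN3 and MPO between AZ5576 and THZ531, and for MPO between AZ5576 and YKL5124. The cause was not tested. Replicate numbers did not pair libraries: 18 correlations between same-numbered libraries ran from -0.10 to 0.07, and 6 were the best of their 3. The fit with a replicate block gave 4, 5 and 1 rises against DMSO, 1 lower, 2 and 4 between inhibitors, as without it, and called 6519, 9961, 3215, 8607, 2438 and 9612 genes. MPO could not be tested under the strict filter, and its 264 counts limit what can be said of it.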
